A study of Saccharomyces cerevisiae with 12 samples.

Results

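A yeast strain without hexose transporters was set against its reference strain 20 min after a pulse of glucose, across all Saccharomyces cerevisiae genes on the array. The arrays were chosen by their titles, which gave 6 of the 12 arrays of the study, 3 of each strain, and 5449 genes could be tested. Replicates 1 and 3 of each strain (4 arrays) give the 20 min levels and differences below. The replicate 2 arrays of both strains were set aside because they lay with the arrays of the other time. That choice was made from the measured values, and the result over all 3 replicates under their labels is given beside it.

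Both strains belong to CEN.PK, a family of laboratory strains. The null strain, KOY.VW101P, has its known hexose transporter genes deleted, and the reference strain, KOY.PK2-1C83P, is isogenic with it. Cells were held in chemostats, cultures kept at a constant growth rate by the inflow of medium, fed with ethanol as the limiting nutrient at a dilution rate of 0.1 per h. They were sampled at steady state (0 min) and 20 min after glucose was added, in biological triplicate, and RNA of each culture was hybridised to 1 Affymetrix Yeast Genome 2.0 array. The groups used are the null strain at 20 min, the reference strain at 20 min, the null strain at 0 min and the reference strain at 0 min. The amount of glucose and the marker genes used to delete the transporters are absent from the sources used here. The study asks how much of the response to glucose needs the sugar to enter the cell. A culture was measured as a whole, so a change in fewer cells and a smaller change in all cells cannot be told apart.

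Budding yeast takes up glucose by facilitated diffusion through the Hxt proteins. The membrane proteins Snf3 and Rgt2 resemble these carriers but act as sensors of glucose outside the cell, and through the proteins Mth1 and Std1 and the repressor Rgt1 they govern HXT genes. Sugar that has entered is phosphorylated by hexokinases, and its metabolism shuts off the Snf1 kinase, which leaves the Mig1 repressor active and the activators of ethanol growth silent. Cyclic AMP and protein kinase A, which also need intracellular metabolism of glucose for part of their activation, lower stress genes and raise the genes of ribosome production.

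The deposited values are log2 intensities, with array medians between 10.34 and 10.90 before quantile normalization. After it, 2.06 was the lowest value. Replicates 1 and 3 correlated across genes at 0.987 in the null strain and 0.990 in the reference strain at 20 min. The median absolute difference between these replicates was 0.184 log2 units in the null strain and 0.144 in the reference strain. For replicate 2 labelled 20 min, the mean correlation with replicates 1 and 3 of the same label was 0.942 in the null strain and 0.721 in the reference strain. With replicates 1 and 3 labelled 0 min it was 0.992 in the null strain and 0.994 in the reference strain. Below, a pair of values gives the log2 intensities on replicates 1 and 3 at 20 min. A difference is the null minus the reference strain in log2 units (n = 2 arrays per strain), with its standard error (SE). The SE is limma's, from a spread per gene pooled over replicates 1 and 3 of both strains at both times and moderated across genes. It is therefore the same at both times, and is not the spread of the 20 min arrays alone. The p-values are limma's, adjusted over all genes by the method of Benjamini and Hochberg. A gene is called higher or lower where this p is under 0.05.

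At 20 min after glucose the strains differed in most of the transcriptome. Of 5449 genes, limma called 4106 (75.4%), of which 1991 (36.5% of all genes) were higher and 2115 (38.8%) lower in the null strain. A difference of at least 1 log2 unit was called for 3148 genes, 1533 higher and 1615 lower, and one of at least 4 log2 units for 314 higher and 251 lower genes. The median difference over all genes was -0.04 after normalization and 0.08 in the values as deposited, so the sign of small differences depends on the scaling. With all 3 replicates under their labels, the fit of 12 arrays called 35 genes (0.642%), 20 higher and 15 lower, and 2131 had an unadjusted p under 0.05. All 35 were among the 4106, with the same sign. Both fits hold the 20 min arrays of replicates 1 and 3, so this agreement is partly built in. Of the 35, 25 were also called at 0 min on replicates 1 and 3, where 1.28% of all genes were called. As deposited, the same fit gave 4 higher and 12 lower genes. Without the reference array labelled 20 min replicate 2 it called 3046 genes, 1574 higher and 1472 lower.

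**Figure D1:**
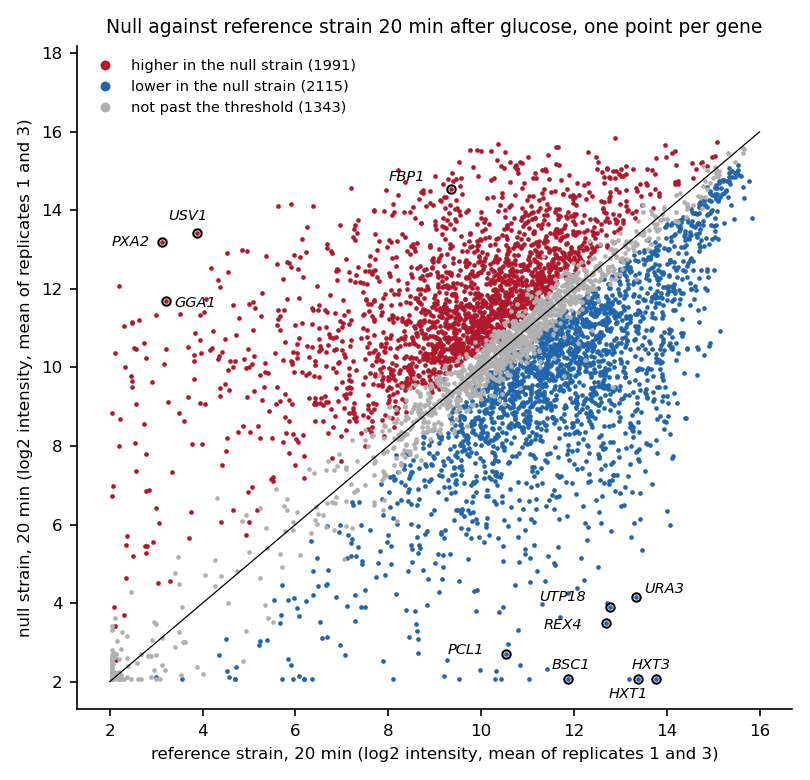
Mean log2 intensity of replicates 1 and 3 at 20 min in the null strain (vertical axis) and the reference strain (horizontal axis), one point per gene, coloured by the limma call, with the line of equal levels. The 1991 genes higher and the 2115 genes lower in the null strain spread far from the line, from PXA2 and USV1 at the upper left to HXT1, HXT3 and REX4 at the lower right.

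The 3 genes taken as markers of the comparison separated the strains on every array of replicates 1 and 3. HXT1, a low-affinity glucose carrier, was at 2.06 and 2.06 in the null strain and at 13.20 and 13.57 in the reference strain. HXT3, another low-affinity carrier, was at 2.06 and 2.06 in the null strain and at 13.82 and 13.74 in the reference strain. PXA2, a subunit of the transporter that carries fatty acids into the peroxisome, was at 13.32 and 13.06 in the null strain and at 3.58 and 2.67 in the reference strain. The deleted carriers thus lay at the lowest value of the array in the null strain, and PXA2 was nearly at that value in the reference strain, with no overlap between the strains. Such folds were bounded against the lowest normalized value among genes more than 0.25 log2 units above the array's lowest deposited value. By that bound HXT3 was at least 2642-fold lower (limma adjusted p = 8.68e-07) and HXT1 at least 2010-fold lower (adjusted p = 4.02e-06) in the null strain. PXA2 was higher by 10.07 (SE 0.31, adjusted p = 8.25e-06). On the replicate 2 arrays labelled 20 min, PXA2 was at 11.72 in the null strain and 11.67 in the reference strain, and HXT1 at 2.06 in the null strain and 4.68 in the reference strain.

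**Figure D2:**
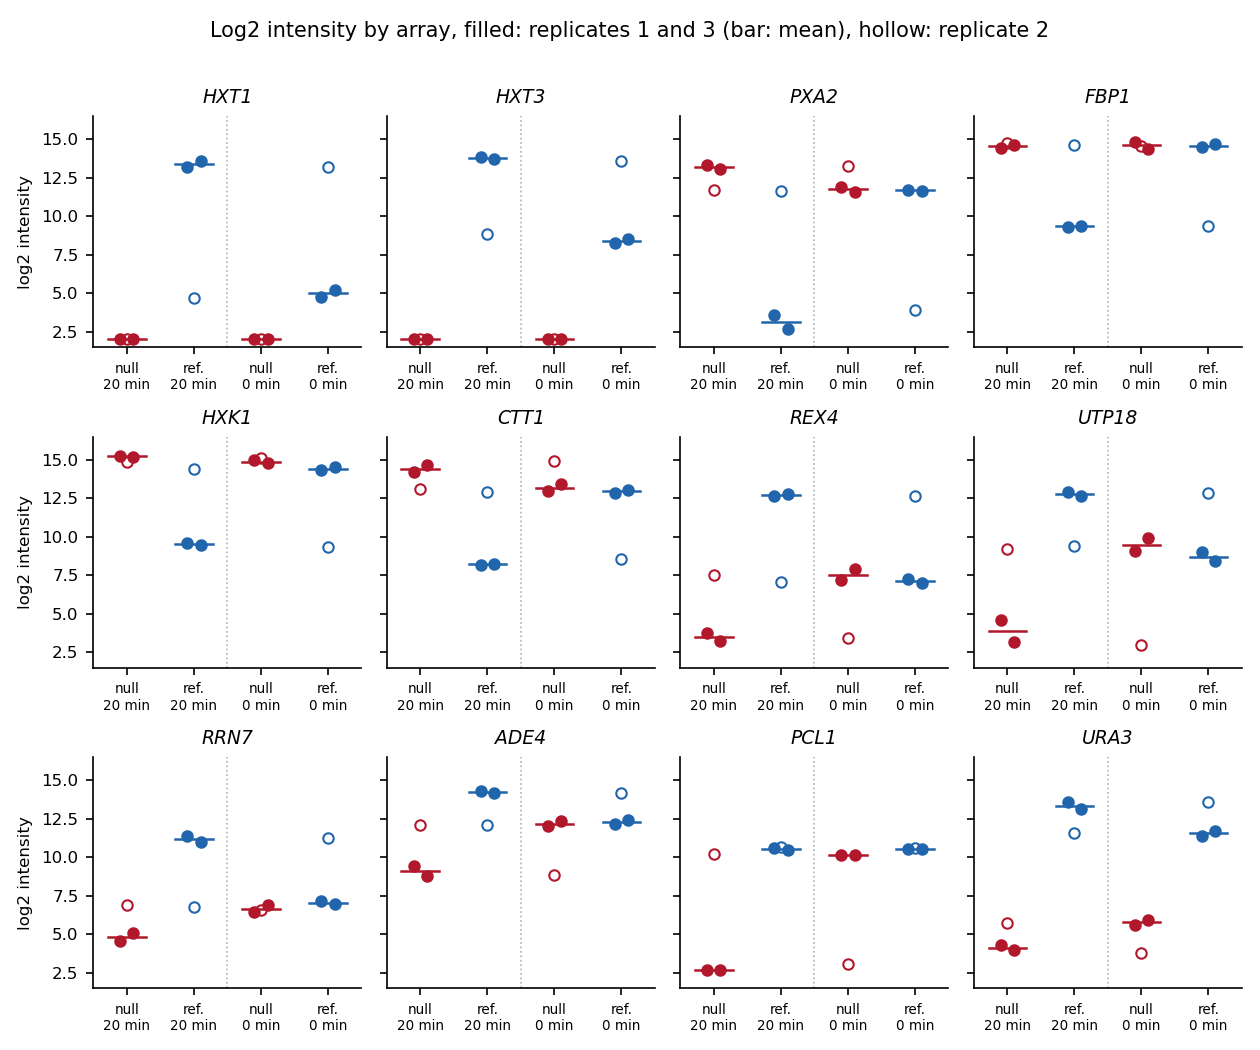
Log2 intensity of 12 genes on every array, in 4 columns per panel: null and reference strain at 20 min, null and reference strain at 0 min. Filled points are replicates 1 and 3, the bar is their mean, and hollow points are replicate 2 under its label. For PXA2, FBP1, HXK1 and CTT1 the filled points of the reference strain at 20 min stand apart below the others, and the reference strain's replicate 2 point labelled 20 min lies level with the filled 0 min points.

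Among the 15 measured hexose transporter genes, the null strain had 6 called lower (40%, against 38.8% of all genes) and none higher (36.5% of all genes), and 9 did not pass. HXT4 was at least 1743-fold lower, HXT2 at least 514-fold, HXT5 at least 257-fold and HXT7 at least 241-fold. The sequences of HXT6 and HXT7 are almost the same, and the value given for HXT7 may include HXT6. In the reference strain at 20 min HXT4 was at 13.13 and 13.23, HXT2 at 11.22 and 11.62, HXT5 at 10.24 and 10.60 and HXT7 at 10.40 and 10.25. Levels of different probe sets share no scale, so the carriers are given in no order of level. HXT8, HXT10, HXT11, HXT13, HXT14, HXT15, HXT17 and GAL2 lay at the lowest value in both strains at 20 min, so no fold is given for them. HXT9 was at 2.06 and 2.06 in the null strain and at 3.14 and 2.07 in the reference strain and did not pass, except without reference replicate 3 (adjusted p = 0.0423). With all 3 replicates, 5 of the 15 genes were called, each lower in the null strain.

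Genes that make sugar from ethanol and feed ethanol and acetate into metabolism stood higher in the null strain. The list of gluconeogenic and glyoxylate cycle genes had all 9 members called higher (100%, against 36.5% of all genes). Its median difference was 4.55, against -0.04 over all genes. FBP1, the fructose-1,6-bisphosphatase of gluconeogenesis, was at 14.43 and 14.65 in the null strain and at 9.32 and 9.38 in the reference strain, a difference of 5.19 (SE 0.16, adjusted p = 8.65e-06). The glyoxylate cycle enzymes ICL1 (isocitrate lyase) and MLS1 (malate synthase) were higher by 4.62 (SE 0.16) and 4.93 (SE 0.16). SFC1, a mitochondrial carrier of succinate and fumarate, was higher by 5.48 (SE 0.27), and IDP2, the cytosolic isocitrate dehydrogenase that makes NADPH, by 4.55 (SE 0.15). In all 5 genes the lowest null value exceeded the highest reference value by more than 4 log2 units. At 0 min the strains did not differ in any of the 9 genes past the threshold. Over all 3 replicates their median was 3.00, with no call.

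Of 18 genes of ethanol, acetate and lactate use, 16 were higher (88.9%, against 36.5% of all genes) and 2 lower in the null strain. Their median was 4.22. CYB2, the lactate dehydrogenase of the mitochondrial intermembrane space, was at 15.07 and 14.99 in the null strain and at 7.99 and 8.41 in the reference strain, a difference of 6.83 (SE 0.26). The acetate transporter ADY2 was higher by 4.16 (SE 0.16), its relative ATO2 by 5.69 (SE 0.14) and CAT2, the carnitine acetyltransferase that moves acetyl groups into mitochondria, by 5.25 (SE 0.16). All of these had adjusted p between 6.55e-06 and 1.24e-05 by limma. The exception in size was DLD3, a cytosolic lactate dehydrogenase, which was at the lowest value on both null arrays and at 10.92 and 11.14 in the reference strain, at least 393-fold lower in the null strain. DLD3 was also at the lowest value in the null strain at 0 min and lies close to HXT13 on its chromosome, as described with the genes called at both times.

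Enzymes of gluconeogenesis are removed after glucose by the Gid ubiquitin ligase, and most of its genes were higher in the null strain. Of 8 measured genes, 7 were higher (87.5%, against 36.5% of all genes) and 1 lower in the null strain, with a median of 5.62. FYV10, a catalytic subunit, was at 10.98 and 10.76 in the null strain and at 4.29 and 3.38 in the reference strain, a difference of 7.04 (SE 0.31). RMD5, its catalytic partner, was higher by 6.29 (SE 0.28) and VID28, a scaffold subunit, by 6.35 (SE 0.41). VID30, another scaffold subunit, was at 11.28 and 11.14 in the null strain and at 2.06 and 3.22 in the reference strain, where 1 array was at the lowest value. The single lower gene was VID24, chosen here after its values were seen, which encodes the subunit that recognises gluconeogenic enzymes. VID24 was at 12.12 and 11.38 in the null strain and at 14.12 and 14.18 in the reference strain, a difference of -2.40 (SE 0.55, adjusted p = 0.00946).

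Peroxisome genes included the largest positive difference of all genes measured above the lowest value in both strains, that of PXA2. Of 17 genes that serve peroxisomes or fatty acid oxidation, 15 were higher (88.2%, against 36.5% of all genes), 1 lower and 1 not past the threshold. Their median was 5.55. POX1, the fatty acyl-CoA oxidase that opens peroxisomal fatty acid oxidation, was at 14.59 and 14.57 in the null strain and at 6.78 and 7.63 in the reference strain, a difference of 7.38 (SE 0.31). IDP3, the peroxisomal isocitrate dehydrogenase, was higher by 7.11 (SE 0.25), DCI1, an enoyl-CoA isomerase relative, by 6.52 (SE 0.18) and TES1, an acyl-CoA thioesterase, by 5.55 (SE 0.18). PEX18, which helps import proteins into peroxisomes, is outside this list and was named for the size of its difference. It had 11.14 and 11.10 in the null strain against 2.32 and 2.65 in the reference strain. The gene of the list that was lower was PCS60, a peroxisomal AMP-binding protein, at -0.85. The one that did not pass was ANT1, the peroxisomal carrier of adenine nucleotides, at 0.05. PCS60 and ANT1 were named after their values were seen. With all 3 replicates the median of the list was 3.76, with no call.

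Mitochondrial genes were higher in the null strain by smaller amounts, with few exceptions. In the citric acid cycle 17 of 18 genes were higher and 1 did not pass (median 3.03). All 24 measured genes of the respiratory chain (median 2.21) and all 17 of the ATP synthase (median 1.90) were higher. Of 65 mitochondrial ribosomal protein genes, 52 were higher (80%), 1 was lower and 12 were not called (median 0.84). Over all genes, 36.5% were called higher. SDH3, a membrane subunit of succinate dehydrogenase, was at 14.49 and 14.40 in the null strain and at 10.53 and 10.38 in the reference strain. KGD1 and KGD2, subunits of 2-oxoglutarate dehydrogenase, were higher by 3.89 (SE 0.20) and 3.80 (SE 0.24), and CIT3, a mitochondrial citrate synthase, by 4.98 (SE 0.17). In the respiratory chain the largest differences belonged to the NADH dehydrogenases NDE2, at 5.30 (SE 0.25), and NDI1, at 4.29 (SE 0.29). COR1, a core subunit of the cytochrome bc1 complex, was higher by 2.21 (SE 0.13) and COX4 of cytochrome c oxidase by 2.64 (SE 0.18). NDE1, also an NADH dehydrogenase and named after its values were seen, had the smallest difference of the list, at 0.77. In the ATP synthase list, STF1 and STF2, small proteins that act on the enzyme's inhibitor, were higher by 5.49 (SE 0.15) and 5.87 (SE 0.23), and the subunits ATP3 and ATP5 by 3.05 (SE 0.10) and 1.90 (SE 0.12). None of the genes in these 4 lists was called at 0 min.

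Glycolytic genes differed less, and the isoenzymes of single steps moved apart. Of 13 measured glycolytic genes, 9 were higher (69.2%, against 36.5% of all genes), 1 lower (7.69%, against 38.8%) and 3 not past the threshold. Their median was 0.54. PYK2, a pyruvate kinase of cells with little glycolytic flux, was at 10.75 and 10.70 in the null strain and at 6.77 and 6.23 in the reference strain, a difference of 4.22 (SE 0.22). CDC19, the main pyruvate kinase and named here after its values were seen, was at 15.39 and 15.40 in the null strain and at 15.05 and 15.04 in the reference strain, a difference of 0.35 (SE 0.12, adjusted p = 0.0389). TDH1 was higher by 2.42 (SE 0.14), ENO1 by 2.02 (SE 0.09) and PGK1 by 1.36 (SE 0.10). ENO2, the enolase of fermenting cells and also named after its values were seen, had a difference of -0.22 (SE 0.13) and did not pass. Among 8 fermentation genes 3 were higher (37.5%), 3 lower (37.5%) and 2 not past the threshold, shares like those of all genes (36.5% and 38.8%). PDC6, a minor pyruvate decarboxylase, was at 13.48 and 13.12 in the null strain and at 10.14 and 10.02 in the reference strain. PDC5, another pyruvate decarboxylase, was at 9.73 and 9.87 in the null strain and at 12.78 and 12.45 in the reference strain. These 2 isoenzymes differed in opposite directions, by 3.22 (SE 0.28) for PDC6 and -2.82 (SE 0.32) for PDC5, while PDC1, the main one, was at -0.22 (SE 0.08) and did not pass (adjusted p = 0.0508). PDC1 did pass when probe sets of a gene were averaged, at -0.25 (adjusted p = 0.0369).

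The enzymes that phosphorylate hexoses and set the level of fructose 2,6-bisphosphate, an activator of glycolysis, also split. Of 10 genes in this list 5 were higher (50%, against 36.5% of all genes), 4 lower (40%, against 38.8%) and 1 not past the threshold. HXK1, a hexokinase of cells on poor carbon sources, was at 15.27 and 15.19 in the null strain and at 9.57 and 9.47 in the reference strain, a difference of 5.71 (SE 0.11, adjusted p = 4.85e-06). EMI2, a glucokinase relative, was higher by 6.14 (SE 0.63). HXK2, the main hexokinase on glucose, was lower, at -0.57 (SE 0.12). The kinase gene PFK26 was at 12.001 and 11.488 in the null strain and at 4.70 and 3.43 in the reference strain. Its paralog PFK27 was at 7.42 and 6.13 in the null strain and at 11.85 and 12.24 in the reference strain. The 2 kinases thus differed in opposite directions, by 7.68 (SE 0.42) and -5.27 (SE 0.48), and FBP26, which breaks their product down, was higher by 2.89 (SE 0.14).

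In the pathway that reads extracellular glucose, SNF3 and MTH1 were higher, RGT2, YCK2 and STD1 lower, and RGT1, YCK1 and GRR1 did not pass. As shares of the 8 genes, 25% were higher and 37.5% lower, against 36.5% and 38.8% of all genes, so the list was called no more often than genes at large. SNF3, the high-affinity sensor, was at 10.87 and 10.63 in the null strain and at 6.89 and 6.74 in the reference strain, a difference of 3.93 (SE 0.14). RGT2, the low-affinity sensor, was at 9.19 and 8.77 in the null strain and at 11.47 and 11.32 in the reference strain, a difference of -2.41 (SE 0.16). The differences of these sensors thus had opposite signs. MTH1, which holds HXT genes repressed with Rgt1, was at 13.63 and 13.64 in the null strain and at 7.52 and 7.04 in the reference strain, a difference of 6.35 (SE 0.27, adjusted p = 1.67e-05). The mean of MTH1 was 11.33 in the null strain and 10.61 in the reference strain at 0 min, so its null level at 20 min lay above both levels at 0 min. Its paralog STD1 was lower, at -1.29 (SE 0.25) and YCK2, a casein kinase that acts on Mth1 and Std1, at -2.36 (SE 0.20).

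**Figure D3:**
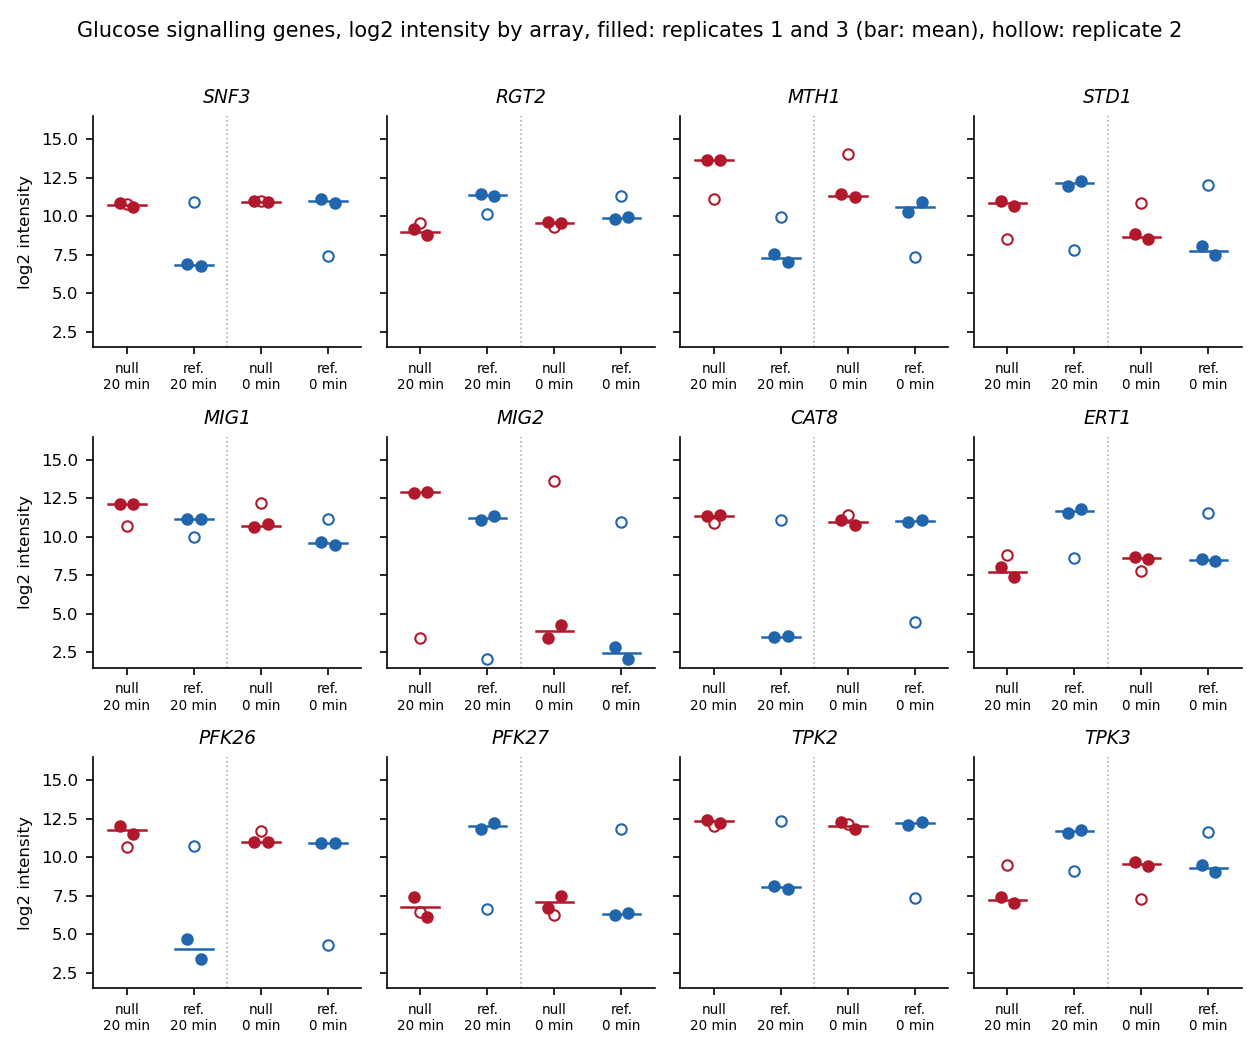
Log2 intensity of 12 glucose signalling genes on every array, laid out as for the genes above: null and reference strain at 20 min, then at 0 min, with filled points for replicates 1 and 3 and hollow points for replicate 2. MIG2 is high in both strains at 20 min and low in both at 0 min over the filled points, while SNF3, CAT8, PFK26 and TPK2 are low only in the reference strain at 20 min among the filled points.

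Repressors of the Mig family were higher in the null strain after glucose. MIG2 was at 12.84 and 12.91 in the null strain and at 11.05 and 11.38 in the reference strain at 20 min, a difference of 1.66 (SE 0.36, adjusted p = 0.00752). MIG1 was at 12.10 and 12.15 in the null strain and at 11.13 and 11.14 in the reference strain, a difference of 0.99 (SE 0.12). At 0 min the difference of MIG1 was 1.16 (adjusted p = 0.0170), and the change of its strain difference between the times did not pass (-0.17, adjusted p = 0.400). MIG3 was higher by 0.83 (SE 0.20, adjusted p = 0.0121), a call lost without null replicate 1 (adjusted p = 0.0623) or reference replicate 3 (0.0589). Over the whole list of glucose repression genes, 6 of 17 were higher (35.3%), 7 lower (41.2%) and 4 not past the threshold, close to the 36.5% and 38.8% of all genes. The count of lower genes was 4 without null replicate 3 or reference replicate 3 and 3 without reference replicate 1. REG2, a regulator of the Glc7 phosphatase, was higher by 5.76 (SE 0.24), and SIP2, one of the beta subunits of the Snf1 kinase, was at 11.08 and 11.16 in the null strain and at 7.75 and 6.57 in the reference strain. The upstream kinases of Snf1, ELM1 and SAK1, were lower, at -2.73 (SE 0.18) and -1.71 (SE 0.24). TUP1 and CYC8, the general corepressors, were at -1.29 (SE 0.35) and -1.09 (SE 0.27), but limma no longer called TUP1 without any 1 of the 4 arrays (adjusted p = 0.0563 to 0.0798), nor CYC8 without replicate 1 of the null strain (0.0675) or of the reference strain (0.0676). SNF1 itself, at 0.76 (SE 0.20), lost its call without any array but null replicate 3 (adjusted p = 0.0576 to 0.0728).

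Activators of growth on ethanol and fatty acids were mostly higher in the null strain, 9 of 13 (69.2%, against 36.5% of all genes) with 2 lower. Without null replicate 1 the count of higher activators was 5. CAT8, the activator of gluconeogenic genes, was at 11.35 and 11.39 in the null strain and at 3.49 and 3.55 in the reference strain, a difference of 7.85 (SE 0.14, adjusted p = 4.02e-06). ADR1, the activator of ADH2 and of peroxisomal genes, was higher by 5.32 (SE 0.50), PIP2, an oleate-responsive activator, by 3.37 (SE 0.32) and SIP4, a partner of Cat8 on its target genes, by 2.60 (SE 0.30). ERT1, a regulator of the switch to ethanol growth, went the other way, with 8.07 and 7.39 in the null strain and 11.51 and 11.79 in the reference strain, a difference of -3.92 (SE 0.24). HAP4, the limiting subunit of the activator of respiratory genes, was at 11.78 and 11.38 in the null strain and 11.59 and 11.98 in the reference strain, and these ranges overlapped. Its difference of -0.20 (SE 0.28) did not pass, whereas all 24 respiratory chain genes did. Of the other subunits of this activator, HAP3 was lower, at -1.24 (SE 0.21). HAP2 and HAP5 were higher by 0.79 (SE 0.19) and 0.91 (SE 0.28), but HAP2 was not called without null replicate 1 (adjusted p = 0.0544) or reference replicate 3 (0.0539), and HAP5 without any 1 of the 4 arrays (0.0623 to 0.115). None of the 13 activators was called at 0 min.

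In the protein kinase A pathway 9 of 15 measured genes were higher in the null strain (60%, against 36.5% of all genes) and 5 were lower (33.3%, against 38.8%). Related proteins again differed in opposite directions. TPK2, a catalytic subunit of protein kinase A, was at 12.43 and 12.24 in the null strain and at 8.14 and 7.94 in the reference strain. TPK3, another catalytic subunit, was at 7.39 and 7.04 in the null strain and at 11.58 and 11.77 in the reference strain. TPK2 was thus higher by 4.29 (SE 0.18) and TPK3 lower, at -4.46 (SE 0.21). RAS1, a small GTPase upstream of adenylate cyclase, was lower, at -3.003 (SE 0.31). Its paralog RAS2, named after its values were seen, was higher by 1.52 (SE 0.19). YAK1, a kinase that opposes growth signals of protein kinase A, was higher by 5.02 (SE 0.18).

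Stress and reserve carbohydrate genes were higher in the null strain as a group. Of 38 stress genes 36 were higher (94.7%, against 36.5% of all genes) and 2 did not pass (median 3.99). Those 2 were MSN2 and MSN4, which encode the activators of this programme. Both were named after their values were seen, with differences of 0.12 (SE 0.19) and -0.04 (SE 0.23). CTT1, the cytosolic catalase, was at 14.18 and 14.63 in the null strain and at 8.16 and 8.25 in the reference strain, a difference of 6.20 (SE 0.21). XBP1, a stress-induced repressor, was higher by 7.46 (SE 0.30) and HSP26, a small heat shock protein, by 3.96 (SE 0.13). Of 9 trehalose genes 8 were higher (median 4.48) and of 13 glycogen genes 12 (median 4.43), and 1 gene of each list did not pass. TSL1, a subunit of the trehalose synthase, was at 13.58 and 13.69 in the null strain and at 6.73 and 7.22 in the reference strain. GPH1, the glycogen phosphorylase, was higher by 7.66 (SE 0.32) and GSY1, a glycogen synthase, by 6.51 (SE 0.27), so genes of both breakdown and synthesis differed the same way. Over all 3 replicates the medians were 2.69 for stress, 2.97 for trehalose and 2.95 for glycogen, with no call.

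Protein breakdown followed the same direction. All 35 proteasome genes were higher in the null strain (100%, against 36.5% of all genes), with a median of 2.32, from 0.78 to 3.97. PRE3, a catalytic subunit of the core particle, was at 14.07 and 13.86 in the null strain and at 10.09 and 9.92 in the reference strain, and RPN6 and RPN12 of the regulatory particle were higher by 3.46 (SE 0.11) and 3.28 (SE 0.15). Of 24 measured genes of autophagy and vacuolar hydrolysis 23 were higher and 1 did not pass (median 3.36). ATG14, a subunit of the lipid kinase complex that starts autophagosome formation, was at 8.54 and 8.85 in the null strain and within 0.25 log2 units of the lowest value in the reference strain, at least 76.8-fold higher. ATG17, a scaffold of the initiation complex, was higher by 5.90 (SE 0.21) and PRB1, a vacuolar protease, by 3.69 (SE 0.26).

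Genes of ribosome assembly made up the counterpart on the lower side. Of 64 measured genes of small subunit assembly 63 were lower (98.4%, against 38.8% of all genes) and 1 was not called (median -3.78). All 75 genes of large subunit assembly were lower, with a median of -3.88. None was higher, and none was called at 0 min. UTP18, a component of the small subunit processome, was at 4.62 and 3.16 in the null strain and at 12.89 and 12.67 in the reference strain, a difference of -8.89 (SE 0.54, adjusted p = 4.95e-05). RRP36, an early factor of small subunit processing, was at 5.17 and 3.58 in the null strain and at 12.09 and 12.07 in the reference strain. REX4, a putative exonuclease of rRNA processing, was at 3.78 and 3.22 in the null strain and at 12.63 and 12.78 in the reference strain, a difference of -9.20 (SE 0.30). IPI3, part of the Rix1 complex of large subunit processing, was lower, at -8.72 (SE 0.37), ALB1, a shuttling export factor, at -8.08 (SE 1.04) and CGR1 at -7.30 (SE 0.55). The null arrays spread more than the reference arrays in several of these genes, and ALB1 was at 7.53 and 4.45 in the null strain against 14.11 and 14.03 in the reference strain. Levels of REX4 at 0 min were 7.53 in the null strain and 7.13 in the reference strain, so its 20 min level lay below both in the null strain and above both in the reference strain. The same order held for UTP18, with 0 min means of 9.48 in the null strain and 8.72 in the reference strain. Over all 3 replicates the medians were -2.58 for the small and -2.65 for the large subunit lists, with no call.

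The list for RNA polymerases I and III with their initiation factors held 40 genes. In the null strain 34 were lower (85%, against 38.8% of all genes), 4 higher (10%, against 36.5%) and 2 not past the threshold (median -3.04). RPA12, a polymerase I subunit, was at 7.38 and 5.29 in the null strain and at 14.10 and 13.90 in the reference strain, a difference of -7.66 (SE 0.75). RRN7 and RRN11, subunits of the core factor that starts rRNA transcription, were lower, at -6.38 (SE 0.25) and -6.38 (SE 0.65), and RPC17 of polymerase III at -6.64 (SE 0.26). The 4 higher genes were TFC3, TFC4 and TFC8, subunits of the factor that binds tRNA gene promoters, and MAF1, the repressor of polymerase III; all but TFC3 were named after their values were seen. MAF1 was at 11.53 and 11.72 in the null strain and at 9.82 and 9.99 in the reference strain, a difference of 1.72 (SE 0.14). TFC3 was higher by 2.86 (SE 0.17) and was also higher at 0 min, by 1.39, and it lies on chromosome I.

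**Figure D4:**
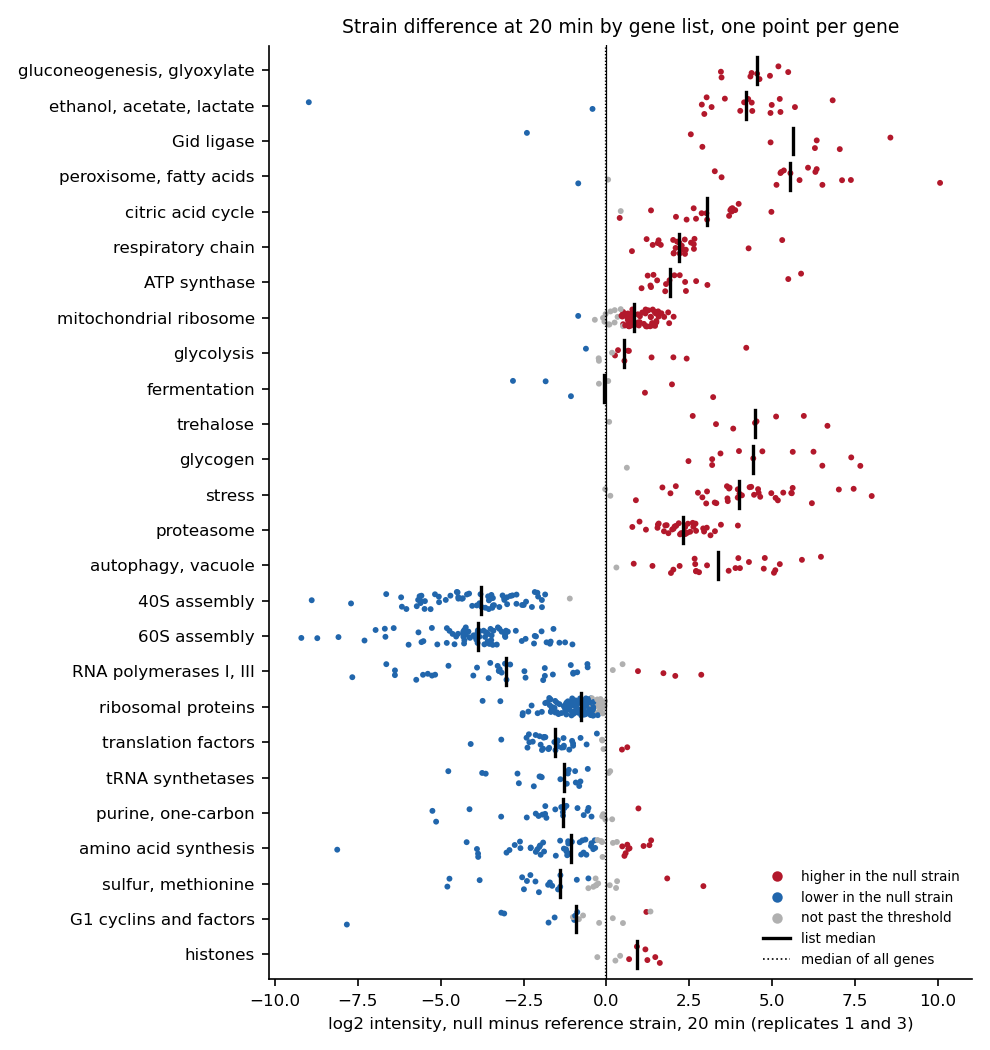
Difference in log2 intensity between the null and the reference strain at 20 min (replicates 1 and 3) for the measured genes of 26 lists, one point per gene, coloured by the limma call, with the list median as a bar and the median of all genes as a dotted line. Lists of ethanol metabolism, mitochondria, reserves, stress and protein breakdown lie to the right, and lists of ribosome assembly and translation lie to the left.

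The translation machinery itself differed by less. The median level of the ribosomal protein genes was high, 14.01 in the null strain and 14.84 in the reference strain. The highest deposited values of the arrays were 15.65 to 15.96, and whether signals near them shrink the differences was not tested. Of 128 measured cytosolic ribosomal protein genes 111 were lower (86.7%, against 38.8% of all genes), none higher and 17 not past the threshold. Their median was -0.76, and 44 were lower by at least 1 log2 unit. Paralogs of one protein can share probes, so their values are not fully separate. RPS28B was at 10.42 and 9.81 in the null strain and at 13.80 and 13.89 in the reference strain, a difference of -3.73 (SE 0.22), and RPL22B was lower, at -3.20 (SE 0.29), against -0.76 (SE 0.16) for RPL11A. Translation factors had 34 of 39 genes lower and 2 higher (median -1.53). GCN3, a regulatory subunit of the initiation factor eIF2B, was lower, at -4.09 (SE 0.13), and DED1, an RNA helicase of initiation, at -2.41 (SE 0.45). Of 20 tRNA synthetase genes 18 were lower and none higher (median -1.29). WRS1, which charges tRNA with tryptophan, was at 8.86 and 8.35 in the null strain and at 13.46 and 13.29 in the reference strain, a difference of -4.77 (SE 0.27), and MES1, the methionine enzyme, was lower, at -3.64 (SE 0.10).

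Biosynthetic genes were lower in the null strain in their majority. Of 27 measured genes of purine and one-carbon metabolism 22 were lower (81.5%, against 38.8% of all genes) and 1 higher (median -1.31). ADE4, which catalyses the first committed step of purine synthesis, was at 9.41 and 8.78 in the null strain and at 14.27 and 14.19 in the reference strain, a difference of -5.14 (SE 0.24). IMD4, an IMP dehydrogenase, was lower, at -5.25 (SE 0.42), and HPT1, which salvages purine bases, at -3.17 (SE 0.17). Of 56 measured genes of amino acid synthesis 40 were lower (71.4%, against 38.8% of all genes) and 10 higher (17.9%, against 36.5%), with a median of -1.08. SER2, the last enzyme of serine synthesis, was at 6.17 and 4.52 in the null strain and at 13.55 and 13.37 in the reference strain, a difference of -8.12 (SE 0.54), and HIS1, the first enzyme of histidine synthesis, was lower, at -4.22 (SE 0.16). Of 28 measured sulfur genes 17 were lower (60.7%, against 38.8% of all genes) and 2 higher (7.14%, against 36.5%), with a median of -1.39. The sulfate permeases went apart. SUL2 was at 6.69 and 8.81 in the null strain and at 12.65 and 12.44 in the reference strain, a difference of -4.80 (SE 0.69), while SUL1 was at 13.27 and 13.47 in the null strain and at 10.62 and 10.27 in the reference strain, a difference of 2.93 (SE 0.29).

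Among 16 genes of G1 cyclins and their regulators 8 were lower (50%, against 38.8% of all genes) and 1 higher. Without reference replicate 1 the count of lower genes was 5. PCL1, a G1 cyclin of the kinase Pho85, was at 2.71 and 2.69 in the null strain and at 10.62 and 10.44 in the reference strain, a difference of -7.83 (SE 0.09, adjusted p = 1.45e-06). The reference strain had a mean of 10.54 at 0 min and the null strain 10.13, so PCL1 was low only in the null strain at 20 min among these 4 groups. CLN1 was lower, at -1.74 (SE 0.31) and FAR1, an inhibitor of the G1 kinase, at -3.17 (SE 0.21). CLB2, a mitotic cyclin, was at 2.92 and 2.99 in the null strain and at 10.33 and 10.85 in the reference strain, a difference of -7.63 (SE 0.71). CLB6, an S phase cyclin, was at -3.08 (SE 0.37), a size that shrank to -1.64 in the values as deposited. Histone genes had 6 of 9 higher (66.7%, against 36.5% of all genes), none lower and 3 not past the threshold, with a median of 0.92. HHO1, the linker histone, was higher by 1.61 (SE 0.13).

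Among all genes above the lowest value on all 4 arrays, the largest positive differences were those of PXA2 and then USV1, at 9.55 (SE 0.34). USV1, a zinc finger factor linked to growth on non-fermentable carbon, was at 13.32 and 13.55 in the null strain and at 3.66 and 4.10 in the reference strain. GGA1, an adaptor of vesicle traffic from the Golgi, was higher by 8.47 (SE 0.12), ARO10, a phenylpyruvate decarboxylase, by 8.36 (SE 0.45) and ISF1, a gene linked to mitochondrial function, by 8.49 (SE 0.39). Some genes were high in the null strain and at the lowest value in the reference strain. MSF1, the mitochondrial phenylalanyl-tRNA synthetase, was at least 192-fold higher, and RMR1 at least 245-fold. On the lower side REX4 and URA3 had the largest measured difference. BSC1 was at the lowest value on both null arrays and at 11.83 and 11.91 in the reference strain, at least 704-fold lower, and SRO9, an RNA-binding protein, was lower, at -7.60 (SE 0.40).

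The strain difference at 20 min was next set against that at 0 min, which is computed from other arrays. The tests at both times share a spread per gene from the same fit, so their calls are not fully separate. At 0 min limma called 70 genes (1.28%), with the null strain higher for 48 (0.881%) and lower for 22 (0.404%). As deposited, 13 were higher and 28 lower. Of the 70 genes, 61 were called at both times, which is 87.1% of the calls at 0 min, against 75.4% of all genes called at 20 min, and 1.49% of the calls at 20 min. The change of the strain difference between the times, tested directly, passed for 3611 genes (66.3%), 3503 of them called at 20 min, which is 85.3% of the 20 min calls. That change is computed from the same 20 min arrays, so this overlap is partly built in. With all 3 replicates under their labels, 25 genes (0.459%) were called at 0 min and 0 (0%) for the change between the times, where 17 had an unadjusted p under 0.05.

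**Figure D5:**
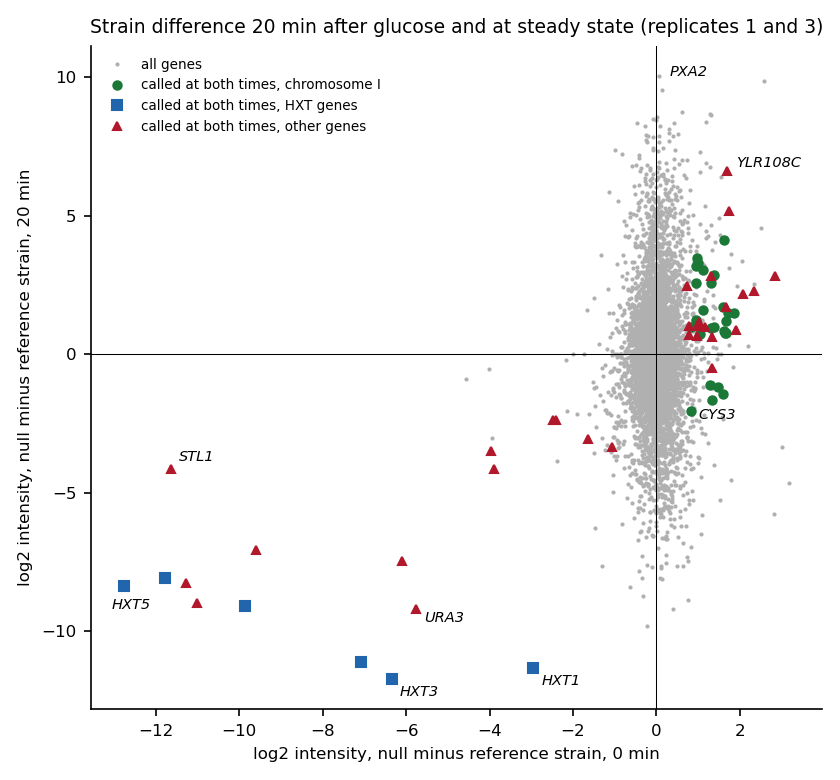
Difference in log2 intensity between the null and the reference strain at 20 min (vertical axis) and at 0 min (horizontal axis) over replicates 1 and 3, one point per gene, with the 61 genes called at both times marked by place or family. Most genes lie along the vertical axis, the HXT genes are low at both times, and most marked genes of chromosome I lie on the right.

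Of the 61 genes 55 kept their sign, 37 higher and 18 lower in the null strain. The lower ones held the 6 called transporters and 6 genes within 4 genes of a transporter gene in the order of RefSeq annotation R64, a limit set after the values were seen. Of all 78 tested genes within that limit, 7.69% were lower at both times and 5.13% higher, against 0.112% and 0.616% of the 5356 other genes. DSF1, DLD3 and RMD6 lie 1, 2 and 3 genes from HXT13, YJL218W and REE1 lie 1 and 2 genes from HXT9, and VTH1 lies 3 genes from HXT12. DSF1, YJL218W and VTH1 were named after their values were seen. REE1, a regulator of the enolase gene ENO1, was at the lowest value on both null arrays and at 10.54 and 10.08 in the reference strain, at least 239-fold lower, and RMD6 was at least 138-fold lower. STL1, a glycerol transporter, and MAL11, a maltose carrier, were also at or near the lowest value in the null strain at both times, at least 13.7-fold and at least 111-fold lower at 20 min. The difference of STL1 was -4.14 (SE 0.17), and -2.35 in the values as deposited. The sources used here do not say whether these genes were deleted. The 4 higher genes within the limit were YJL213W, 1 gene from HXT8, at 2.83 at 20 min, YOL159C-A, 4 genes from HXT11, at 2.30, and KRE1 and LEM3, 3 and 4 genes from HXT14, at 0.67 and 1.17. Past the limit, FIG4, PFA3 and RPD3, 5, 6 and 10 genes from HXT14, were also higher at both times. Their 20 min differences were 1.72, 0.63 and 1.02, and they count among the other genes above. YOL159C-A, KRE1, LEM3, FIG4, PFA3 and RPD3 were named after their values were seen.

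URA3, of uracil synthesis and a common marker in strain construction, was at 4.30 and 3.99 in the null strain and at 13.56 and 13.13 in the reference strain at 20 min, a difference of -9.20 (SE 0.22, adjusted p = 6.55e-06). At 0 min its difference was -5.77 (adjusted p = 0.000311). The null strain thus had less URA3 signal at both times, and the strains do not overlap at either. The call held with all 3 replicates, at -8.07 (adjusted p = 0.00307). HIS3 and LEU2, also used as markers, were lower at 20 min at -2.02 (SE 0.12) and -1.53 (SE 0.21), with no call at 0 min.

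Of the 37 genes higher at both times, 21 lie on chromosome I. As deposited these counts were 10 and 6, and with the replicate block 17 and 11. Over 76 genes of this chromosome the median difference was 0.72 at 20 min, against -0.10 over 5063 other genes, in both cases over genes with a mean log2 intensity above 6 on the 4 arrays. At 0 min the medians were 0.98 and -0.00. As deposited, the medians on chromosome I were 1.02 at 20 min and 0.84 at 0 min, against 0.12 and -0.09 over the other genes. Of the 76 genes, 40 (52.6%) were called higher at 20 min, against 37.7% of the 5063 other genes. Whether the strains differ in the copy number of chromosome I was not tested. FRT2, at 10.89 and 10.81 in the null strain and 6.68 and 6.79 in the reference strain, was higher by 4.11 (SE 0.10) at 20 min and by 1.63 at 0 min. TPD3, a scaffold subunit of protein phosphatase 2A, was higher by 3.18 (SE 0.12) and by 0.94, and RFA1, of the factor that binds single-stranded DNA, by 3.06 (SE 0.14) and by 1.13.

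The 6 genes of opposite sign were higher in the null strain at 0 min and lower at 20 min, and 5 of them lie on chromosome I. As deposited there were 2 such genes, and with the replicate block 4. CYS3, cystathionine gamma-lyase of cysteine synthesis, was at 12.01 and 12.23 in the null strain and at 14.17 and 14.14 in the reference strain at 20 min, a difference of -2.03 (SE 0.11), against 0.82 at 0 min. SWC3, of the complex that places a histone variant, had -1.66 (SE 0.14) at 20 min and 1.33 at 0 min, and NUP60, of the nuclear pore, had -1.17 (SE 0.13) and 1.49. LTE1 had -1.45 (SE 0.18) and 1.59, and POP5, a subunit of RNase P, had -1.13 (SE 0.16) and 1.29. MTG2, on chromosome VIII, had -0.49 (SE 0.16) and 1.33. For MTG2 the 20 min call was lost without either null replicate or without reference replicate 3 (adjusted p = 0.0923 to 0.110), and as deposited its difference was -0.18 (adjusted p = 0.469).

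The replicate 2 arrays are given by list under their labels, as values with no test and with no array moved to another group. Between the arrays labelled 20 min replicate 2, the median difference was -0.05 for gluconeogenesis, 0.11 for stress, 0.05 for peroxisomes, -0.09 for small subunit assembly and -0.15 for large subunit assembly. Between the arrays labelled 0 min replicate 2, the medians were 4.19, 4.04, 5.34, -3.88 and -3.71 for the same lists. These values follow from the correlations for which replicate 2 was set aside, and they are no separate support for the lists.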

How the data were processed

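The authors deposited log2 intensities, 1 for each probe set on each array; their software is not given in the sources read. Per the labels' protocols, total RNA was extracted with a column kit and DNase, and labelled cRNA was made from 5 ug of it. Of 10928 probe sets 166 were controls, and 5498 were matched to S. cerevisiae genes through the platform's probe table and RefSeq R64. The probe set of highest mean was kept for each of 5449 genes. Because array medians differed by 0.558, over a limit of 0.1, the 12 arrays were quantile normalized. limma 3.58.1 in R 4.3.3 fitted 4 group means to replicates 1 and 3 (8 arrays, 4 residual degrees of freedom) and, separately, to all 12 arrays, with moderation by eBayes and p-values adjusted by Benjamini-Hochberg, called under 0.05. The fit was tested on simulated data in which far fewer genes were changed than were called here. That test therefore does not cover differences as broad as those between these strains. A value within 0.25 log2 units of the lowest deposited value of its array counts as at the lowest, and a fold against such a group is a bound. The number of arrays limits the precision. Deviations of same-numbered null and reference arrays from their group means correlated at r = -0.151, -0.193 and -0.131 over genes in all 12 arrays. Those group means include replicate 2, which lay with the other time, so these values cannot decide whether numbers are pairs. Replicates 1 and 3 alone gave 0.0554, which is 1 value because their deviations mirror each other. Pairing of same-numbered arrays between the times was not tested. Numbers were not taken as pairs in the main fit, and counts with the replicate number as a block are given below. Genes named were taken from several sets, and not every member of a set is named. The sets are the markers, the transporter, sensor, repression and activator lists, and genes called at both times. They also include the 15 largest measured differences and 10 largest bounds each way, and the 4 largest and the median gene of each list. Exceptions are stated. The members and the 41 lists, written from general knowledge, were chosen with earlier results of these data known. No promoter or protein sequence was used, so the motif counts were not run. Figures were drawn with matplotlib 3.10.9.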

Additional observations from a re-analysis of the deposited data

Results flagged for a closer look

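The difference between the strains was not the same at the 2 times for 3611 genes by the test of the change itself (limma, replicates 1 and 3). For the genes whose differences at both times are given above, the 20 min difference minus the 0 min difference was as follows. It was -3.44 for URA3, where the null strain was further below the reference strain at 20 min. It was 1.47 for TFC3, 2.48 for FRT2, 2.23 for TPD3 and 1.93 for RFA1, all higher in the null strain at both times and more so at 20 min. It was -2.85 for CYS3, -2.995 for SWC3, -3.04 for LTE1, -2.66 for NUP60, -2.42 for POP5 and -1.83 for MTG2, which turned from higher to lower in the null strain.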

How the results depend on the processing

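The 4106 genes called on replicates 1 and 3 became 4135 as deposited, 4233 with centred arrays, 4057 without dim genes, 4168 with the 20 min arrays alone, 4032 with the replicate number as a block (replicate block), 3525 at an adjusted p of 0.01 and 3693 to 3783 when 1 of the 4 arrays was left out. Under the labels with all 3 replicates 35 were called, and the change between the times gave 0 and the 0 min comparison 25. In that 12-array fit, 35 became 16 both as deposited and with centred arrays, 23 without dim genes, 5 with the 20 min arrays alone, 9 with the replicate block, 15 at an adjusted p of 0.01 and 4541 with array weights, which gave replicate 2 arrays 0.0548 to 0.370. Leaving out 1 array gave 12 to 3046, and the high end was the fit without reference 20 min replicate 2. The 70 calls at 0 min became 41 as deposited and 44 with the block. Under the labels, 40 of the 41 lists had 0 called members in their main direction, or 1 (phosphate, and URA3 among the marker genes), the exception being the transporters with 5. The count of members in a list's main direction otherwise moved by over 1.5 times only when an array was left out: 3 to 4 of 7 lower repression genes, 5 of 9 higher activators without null replicate 1, and 5 of 8 lower G1 genes without reference replicate 1. The block changed no list count by that much. Medians that turned positive were, as deposited, those of the repression (0.07), fermentation (0.02), transporter (0.03) and mating lists (0.18), with centred arrays mating (0.04), without null replicate 3 repression (0.02), without reference replicate 3 mating (0.0064), and under the labels with all 3 replicates fermentation (0.01) and the Yap list (0.02). The motif counts planned for promoters were not run. Signals near the lowest value limit the size of large differences. Whether signals near the highest value limit differences was not tested. The ribosomal protein list and the glycolytic list (medians 15.04 in the null and 14.31 in the reference strain at 20 min) had such high signals.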

Other observations

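Genes for other sugars and nutrients are given next, at 20 min over replicates 1 and 3, where 36.5% of all genes were called higher and 38.8% lower. SUC2, the secreted invertase, was at 13.80 and 14.10 in the null strain and at 8.09 and 8.59 in the reference strain, a difference of 5.61 (SE 0.35). The maltose permease MAL31 and the maltase MAL32 were higher by 4.28 (SE 0.18) and 4.81 (SE 0.15), with no call at 0 min. In the phosphate list 11 of 18 genes were higher (61.1%) and 4 lower (22.2%), and PHO84, the high-affinity phosphate transporter, was at 2.69 and 3.59 in the null strain and at 8.62 and 8.29 in the reference strain, a difference of -5.31 (SE 0.48). Of 18 ammonium and amino acid permease genes 5 were higher (27.8%) and 10 lower (55.6%). PUT4, the proline permease, was higher by 4.84 (SE 0.21), and HIP1, the histidine permease, was at -3.36 (SE 0.22). Iron genes had 9 of 20 higher (45%) and 7 lower (35%), close to the shares of all genes, and ISU2, a scaffold of iron-sulfur cluster assembly, was at -5.60 (SE 0.21). In sterol synthesis 12 of 25 genes were higher (48%) and 6 lower (24%), with ERG9, squalene synthase, higher by 2.59 (SE 0.12) and the sterol regulator UPC2 at -3.88 (SE 0.26). Of 9 mating genes 3 were lower (33.3%, below the share of all genes), none was higher and 6 did not pass. The lower genes were MF(ALPHA)1, at -3.03, STE2, a pheromone receptor, at -1.74 (SE 0.20), and STE6, at -1.10.

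Some genes stood at 20 min above both strains' 0 min means in the null strain. CIN5, a stress factor of the Yap family, was at 11.61 and 12.71 in the null strain and at 7.74 and 7.16 in the reference strain at 20 min, with 0 min means of 6.24 in the null strain and 6.01 in the reference strain. ALD3, an aldehyde dehydrogenase named after its values were seen, was at 12.66 and 13.32 in the null strain and at 7.72 and 7.79 in the reference strain, with 0 min means of 9.38 in the null strain and 8.76 in the reference strain. YLR108C was at 11.93 and 11.87 in the null strain and at 5.28 and 5.26 in the reference strain, with 0 min means of 8.32 in the null strain and 6.61 in the reference strain. The glycerol 3-phosphate dehydrogenases went apart, with GPD2 at -2.99 (SE 0.60) and GPD1, named after its values were seen, at 2.96 (SE 0.13). Within the glycerol list 5 of 17 genes were higher (29.4%) and 9 lower (52.9%). In the Yap list 6 of 15 were higher (40%) and 6 lower (40%), close to the shares of all genes, and OYE3, an NADPH dehydrogenase, was higher by 3.75 (SE 0.41).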
